A study of Oryza sativa with 12 samples.

Results

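The PYL/RCAR proteins are the soluble receptors of abscisic acid (ABA), the plant hormone of water deficit. The set described here comprised 8 rice loci of this family, picked out by a list of locus identifiers that was drawn up with earlier results of these data known, among the 39093 named loci of the deposited expression tables. They were LOC_Os05g12260, LOC_Os02g15640, LOC_Os10g42280, LOC_Os03g18600, LOC_Os06g36670, LOC_Os05g39580, LOC_Os02g13330 and LOC_Os01g61210. Whether they are all the receptor genes of rice was not examined, and the number in an identifier after Os gives the chromosome. The receptors are named by locus here, because the files do not pair the loci with PYL numbers.

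RNA sequencing had been done on seedlings of Oryza sativa, 21 days old, of the cultivars N22, which the submitters call tolerant of drought, and IR64, which they call sensitive. Drought was imposed for 6 h with 20% PEG 6000, a polymer that makes water less available to roots, and control seedlings stood in RO water for the same time. The groups were N22 drought, N22 control, IR64 drought and IR64 control, with 3 libraries each and 12 in all. The labels give no organ, and nothing in them says that the 3 replicates of a group came from separate cultures, so a p-value here reflects only how far these libraries scatter.

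In the accepted scheme of ABA perception, ABA settles in a pocket of the receptor, the lid over the pocket closes, and the closed receptor docks on a clade A PP2C phosphatase and blocks its active site. With the phosphatase blocked, SnRK2 kinases (SAPK in rice) become active and phosphorylate bZIP transcription factors of the ABF type, which switch on ABA-responsive genes. Several of the phosphatase genes are themselves raised by ABA, and the hormone is made through the NCED enzymes and broken down by ABA 8'-hydroxylases.

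Expression values were FPKM, in which the fragments sequenced are divided by transcript length and library size, so levels of different genes can be set side by side. A library listed 30625 to 32107 rows with FPKM totals of 684525 to 761822, and how many reads lay behind them is unknown. The third drought library of each cultivar lay nearer to the controls than the other drought libraries did on the second principal component of all loci, which carried 34.6% of the variance. Its scores there were 6.62 in N22 drought, against 62.0 and 77.5 for the other N22 drought libraries, and 30.7 in IR64 drought, against 57.2 and 75.0, while the controls of both cultivars lay between -66.2 and -36.3. As markers of organs, 6 leaf genes (Rubisco, Rubisco activase and light-harvesting genes) and 6 root genes were detected in every library, none at 0.

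The 8 receptor loci fell into 2 sets with no overlap in level. LOC_Os05g12260, LOC_Os02g15640, LOC_Os10g42280 and LOC_Os03g18600 lay between 13.9 and 80.8 FPKM over the 12 libraries. The remaining 4 loci lay between 0 and 2.81 FPKM. The 4 abundant loci held 97.0% to 99.3% of the summed receptor FPKM of a library. By mean level in a group, the abundant loci stood at the 78.5th to 94.4th percentile of the loci detected in that group, and the low ones at the 18.7th to 43.9th.

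**Figure D1:**
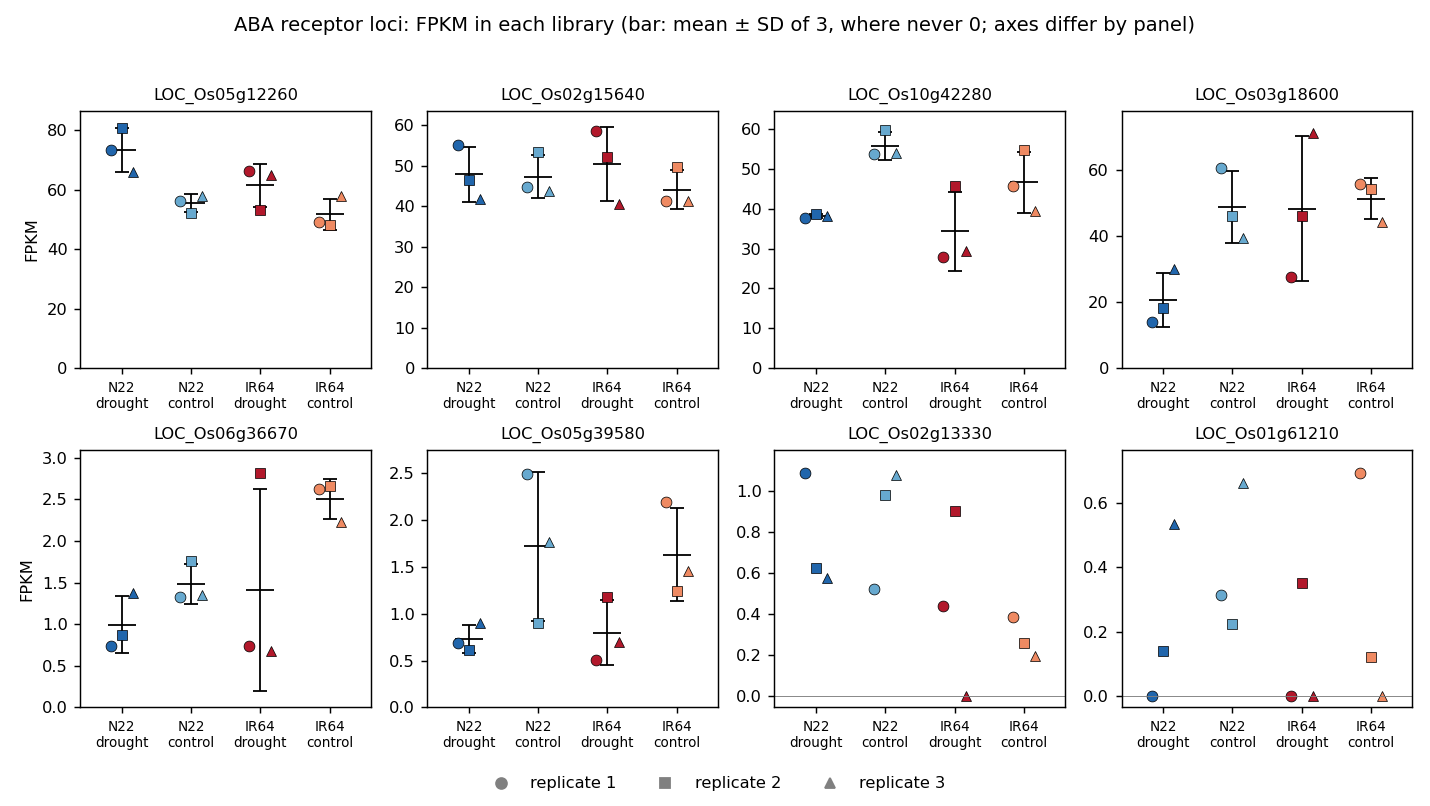
FPKM of each of the 8 receptor loci in each library, with the 4 groups along the x axis (N22 drought, N22 control, IR64 drought, IR64 control), 1 symbol for each replicate number and a bar for the mean ± SD (n = 3), left out for the 2 loci listed at 0 in a library; the FPKM axis differs by panel. LOC_Os03g18600 lies between 13.9 and 29.8 FPKM in N22 drought, below all 3 N22 control libraries, while its IR64 drought values spread between 27.5 and 71.2 FPKM.

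LOC_Os03g18600 was the 1 receptor called in a drought contrast, lower in N22 drought than in N22 control. Its level was 13.9, 18.0 and 29.8 FPKM in N22 drought libraries 1, 2 and 3, against 60.5, 45.9 and 39.4 FPKM in N22 control. The 2 groups did not overlap, and the lowest control stood above the highest drought library. In IR64 the same locus was at 27.5, 46.0 and 71.2 FPKM in drought libraries 1, 2 and 3, against 55.5, 54.0 and 44.0 FPKM in control. Here the drought values lay on both sides of the controls, and the third drought library was the highest of all 12.

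Means of LOC_Os03g18600 were 20.6 ± 8.23 FPKM in N22 drought and 48.6 ± 10.8 FPKM in N22 control (SD, n = 3 each), a ratio of means of 0.423. Changes were tested as differences of mean log2(FPKM + 1) with limma over 24276 loci, with Benjamini-Hochberg adjustment over all of them. A locus is said to have risen or fallen where the adjusted p was at most 0.05 and the change at least 1 on this scale, which understates the change of low genes. By this rule LOC_Os03g18600 fell by 1.25 in N22 (SE 0.34, 95% interval -1.99 to -0.50, adjusted p = 0.0146). The call was lost without N22 drought library 1 (a change of -1.01, adjusted p = 0.0626), without N22 drought library 2 (-1.19, adjusted p = 0.0518) and without N22 control library 1 (-1.08, adjusted p = 0.0572). Without the third drought library of both cultivars the change was -1.53 (SE 0.24, adjusted p = 0.000861). Over all 24 alternatives it ranged between -1.66 and -1.01, with adjusted p between 1.14e-05 and 0.0626. In bulk samples such as these, fewer cells of a type and less RNA per cell cannot be told apart.

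In IR64, LOC_Os03g18600 averaged 48.2 ± 21.9 FPKM in drought and 51.2 ± 6.25 FPKM in control (SD, n = 3 each). The change was -0.18 (SE 0.34, 95% interval -0.92 to 0.56, limma adjusted p = 0.735). Over the alternatives tried its adjusted p ranged between 0.00715 and 0.881. The change was 0.17, with the opposite sign, without IR64 drought library 1, and -0.78 with array weights (adjusted p = 0.00715). Without the third drought library of both cultivars it was -0.50 (adjusted p = 0.128). Pairing libraries by replicate number gave, for drought minus control, -2.04, -1.30 and -0.39 in N22 and -0.99, -0.23 and 0.68 in IR64 for numbers 1, 2 and 3. In both cultivars the difference was most negative for number 1 and least negative, or positive, for number 3.

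The test of the difference between the cultivars' responses gave -1.07 for LOC_Os03g18600, N22 minus IR64 (SE 0.47, 95% interval -2.12 to -0.02), with a limma adjusted p of 0.723. It did not pass. Over the alternatives tried the adjusted p ranged between 0.0468 and 1. The lowest came with array weights, which give less weight to libraries that fit poorly, at a difference of -0.88, under the minimum change. No receptor was called in this contrast, where 0.247% of all loci tested were called, and LOC_Os03g18600 was the 1 receptor with an unadjusted p under 0.05, against 6.78% of all loci. For the 5 other receptors tested the adjusted p of the difference was 1, with differences between -0.17 and 0.33.

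Under drought the cultivars differed at LOC_Os03g18600, with 20.6 FPKM in N22 against 48.2 FPKM in IR64 on average. The difference N22 minus IR64 was -1.16 (SE 0.34, 95% interval -1.90 to -0.41, limma adjusted p = 0.0285), and N22 was called lower. The individual libraries overlapped, since N22 drought library 3 at 29.8 FPKM stood above IR64 drought library 1 at 27.5 FPKM. The call was lost with only the 6 drought libraries in the fit (adjusted p = 0.119), with array weights (a difference of -0.97), and without IR64 drought library 2 (adjusted p = 0.063), IR64 drought library 3 (adjusted p = 0.0987), N22 drought library 1 (adjusted p = 0.115) or N22 drought library 2 (adjusted p = 0.08). Over all alternatives the adjusted p ranged between 9.09e-06 and 0.119. In control libraries the locus averaged 48.6 FPKM in N22 and 51.2 FPKM in IR64, a difference of -0.09 (SE 0.34, adjusted p = 0.924).

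LOC_Os05g12260 was the most abundant receptor in 7 of the 12 libraries, including all 3 of N22 drought. It was at 73.3, 80.8 and 65.9 FPKM in N22 drought libraries 1, 2 and 3, against 56.3, 52.1 and 58.1 FPKM in N22 control. All 3 drought libraries stood above all 3 controls. In IR64 it was at 66.3, 53.2 and 65.1 FPKM in drought, against 49.3, 48.0 and 57.8 FPKM in control, and these groups overlapped.

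The change of LOC_Os05g12260 was 0.39 in N22 (SE 0.12, 95% interval 0.13 to 0.65, limma adjusted p = 0.0234) and 0.24 in IR64 (SE 0.12, interval -0.02 to 0.51, adjusted p = 0.142). The N22 value passed on the adjusted p and not on the size of change. With quantile scaling it was 0.23 and no longer passed (adjusted p = 0.12), and it also missed without N22 drought library 1 or 2 or N22 control library 1 or 2, with adjusted p between 0.000257 and 0.12 over all alternatives. The mean of the 2 drought effects was 0.32 (SE 0.08, adjusted p = 0.00868), and with quantile scaling 0.20 (adjusted p = 0.0566). The adjusted p of this mean ranged between 4.61e-05 and 0.0566 over the alternatives. Drought libraries exceeded the control of the same number in 6 of 6 pairs, and the share of all loci that did so was not computed. The cultivars did not differ past the threshold in drought (0.25, adjusted p = 0.164) or in control (0.10, adjusted p = 0.68).

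LOC_Os10g42280 had lower means in drought in both cultivars, at 38.3 FPKM in N22 drought against 55.9 FPKM in N22 control, and 34.4 FPKM in IR64 drought against 46.7 FPKM in IR64 control, with changes under the minimum. Its level was 37.8, 38.8 and 38.3 FPKM in N22 drought libraries 1, 2 and 3, against 53.7, 59.9 and 54.1 FPKM in N22 control. The N22 drought values were nearly equal (38.3 ± 0.504 FPKM, SD, n = 3) and lay below every N22 control. In IR64 it was at 27.9, 45.7 and 29.5 FPKM in drought, against 45.7, 54.8 and 39.6 FPKM in control, and drought library 2 lay within the range of the controls.

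The change of LOC_Os10g42280 was -0.53 in N22 (SE 0.17, 95% interval -0.91 to -0.15, limma adjusted p = 0.0326) and -0.45 in IR64 (SE 0.17, interval -0.84 to -0.07, adjusted p = 0.0706). In N22 the adjusted p was above 0.05 with no filter on low values and when any 1 of the 6 N22 libraries was left out, and it ranged between 0.000482 and 0.0934 over all alternatives. With the replicate number as a block the IR64 adjusted p was 0.0238, still without the minimum change, and over all alternatives it ranged between 0.000362 and 0.228. The difference of the responses was -0.08 (95% interval -0.62 to 0.46). The mean of both effects was -0.49 (SE 0.12, limma adjusted p = 0.00659), and drought was lower than the control of the same number in 6 of 6 pairs. LOC_Os05g39580 was likewise lower in every pair, and the share of all loci that did so was not computed. LOC_Os10g42280 was highest in the library numbered 2 in 4 of 4 groups. For the other receptors the commonest number was shared by 2 or 3 groups. The share over all loci was not computed.

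LOC_Os02g15640 was the steadiest receptor across the libraries, with a lowest value of 40.5 and a highest of 58.6 FPKM and a coefficient of variation of 13.1% over the 12 libraries, against 41.0% for LOC_Os03g18600. It was at 55.2, 46.4 and 41.8 FPKM in N22 drought libraries 1, 2 and 3, against 44.6, 53.3 and 43.7 FPKM in N22 control. In IR64 it was at 58.6, 52.1 and 40.5 FPKM in drought, against 41.3, 49.5 and 41.3 FPKM in control. The groups overlapped in both cultivars. The change was 0.01 in N22 (SE 0.15, 95% interval -0.33 to 0.35, limma adjusted p = 0.97) and 0.18 in IR64 (SE 0.15, interval -0.16 to 0.52, adjusted p = 0.406), and both intervals stop short of a change of 1 either way.

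Among the low receptors, LOC_Os05g39580 was lower in drought in both cultivars without passing. It was at 0.685, 0.618 and 0.901 FPKM in N22 drought libraries 1, 2 and 3, against 2.49, 0.904 and 1.77 FPKM in N22 control. In IR64 it was at 0.511, 1.18 and 0.694 FPKM in drought, against 2.19, 1.24 and 1.46 FPKM in control. In neither cultivar did the groups overlap, but the second control of each lay just above its highest drought library.

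The ratio of the drought mean to the control mean of LOC_Os05g39580 was 0.427 in N22 and 0.488 in IR64. On the log2(FPKM + 1) scale the change was -0.61 in N22 (SE 0.22, limma adjusted p = 0.0515) and -0.55 in IR64 (SE 0.22, adjusted p = 0.0862), and the mean of both was -0.58 (SE 0.16, adjusted p = 0.0106). With a pseudocount of 0.1 in place of 1 the mean of both effects became -1.01 (adjusted p = 0.00927), and the locus was then called lower. The adjusted p of this mean ranged between 7.31e-05 and 0.0278 over the alternatives.

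LOC_Os06g36670 stood at 0.739, 0.866 and 1.38 FPKM in N22 drought libraries 1, 2 and 3, against 1.33, 1.76 and 1.35 FPKM in N22 control, and the third drought library lay within the control range. In IR64 it was at 0.741, 2.81 and 0.673 FPKM in drought, against 2.62, 2.66 and 2.23 FPKM in control. IR64 drought library 2 stood above all controls and the 2 others far below them. The change was -0.32 in N22 (SE 0.27, 95% interval -0.92 to 0.27, limma adjusted p = 0.369) and -0.65 in IR64 (SE 0.27, interval -1.25 to -0.05, adjusted p = 0.0935). Without IR64 drought library 2 the IR64 change was -1.04 (SE 0.15, adjusted p = 0.00356) and the locus was called lower, so 1 library decided this result. Over all alternatives the adjusted p in IR64 ranged between 0.000175 and 0.273. In control libraries it was lower in N22 than in IR64 in every library, with a difference of -0.50 that did not pass (SE 0.27, adjusted p = 0.271).

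The 2 lowest receptors did not reach 1 FPKM in 2 of the 3 libraries of any group and stayed out of the tests. LOC_Os02g13330 was listed in 11 of 12 libraries, at 1.09, 0.624 and 0.575 FPKM in N22 drought, 0.521, 0.978 and 1.07 FPKM in N22 control, 0.44, 0.901 and 0 FPKM in IR64 drought, and 0.386, 0.258 and 0.195 FPKM in IR64 control. All 3 N22 controls stood above all 3 IR64 controls, at values of only 0.195 to 1.07 FPKM, and the share of loci this low that did so was not computed. LOC_Os01g61210 was listed in 8 of 12 libraries and did not exceed 0.692 FPKM, and it was at 0 in 1 N22 drought, 2 IR64 drought and 1 IR64 control library. A value of 0 can also be a failed estimate. With no filter on low values neither was called in any contrast, and the smallest adjusted p of either, 0.163, was for LOC_Os02g13330 between the cultivars in control (N22 minus IR64 0.53, SE 0.22).

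**Figure D2:**
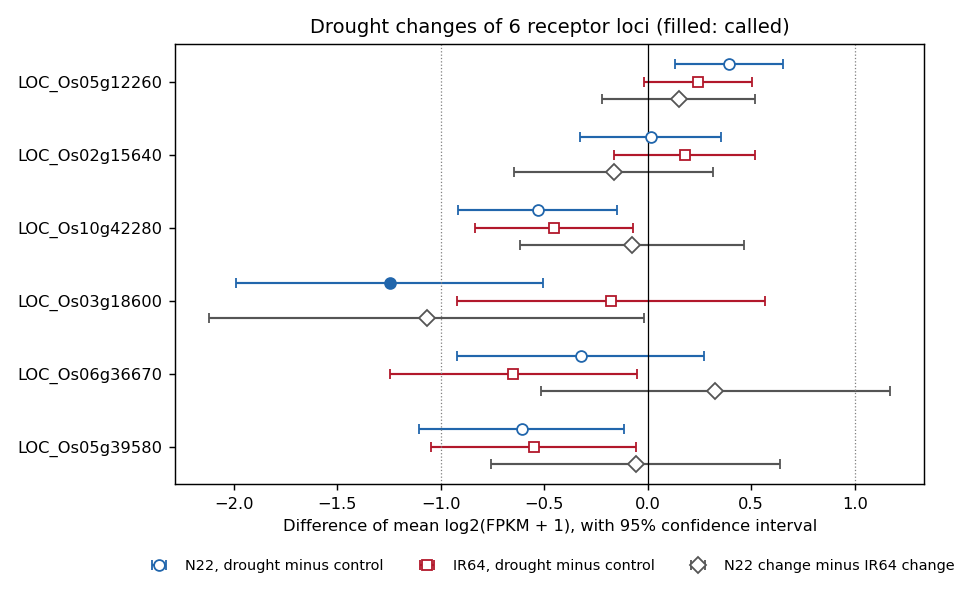
Drought minus control in N22 and in IR64, and the N22 change minus the IR64 change, for the 6 receptor loci that passed the filter, as differences of mean log2(FPKM + 1) with their 95% confidence interval; filled symbols passed the adjusted p and the minimum change, and dotted lines mark a change of 1 either way. The N22 change of LOC_Os03g18600 at -1.25 is the one filled symbol, and the interval of its difference between the cultivars runs from -2.12 to -0.02.

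Of the 8 receptors, 6 passed the filter on low values. In the N22 drought contrast 1 of them was called lower and 0 higher, where 5.17% of all loci tested were called lower and 6.55% higher. In the IR64 drought contrast limma called 0 of 6, where 8.37% of all loci were called, and 3 of 6 had an unadjusted p under 0.05, against 41.8% of all loci. By the adjusted p alone the N22 contrast took 2 receptors lower and 1 higher, where 19.5% of all loci passed lower and 19.6% higher, and the IR64 contrast took 0, where 30.0% passed.

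Non-overlapping groups occurred for 3 receptors lower and 1 higher in N22, where 26.1% of all loci were lower and 25.5% higher in this way, and for 1 lower in IR64, where 23.2% were. For the mean of the 2 drought effects limma called 0 of 6 receptors, where 9.89% of all loci were called, with 5 at an unadjusted p under 0.05, against 58.7%. By adjusted p alone 3 were lower and 1 higher there, where 26.4% of all loci passed lower and 26.0% higher. Between the cultivars 1 receptor was called in drought, lower in N22, where 4.91% of all loci were lower and 5.82% higher. In control 0 of 6 were called, where 9.92% of all loci were, and 0 had an unadjusted p under 0.05, against 28.3%. Non-overlapping groups occurred there for 1 of the 6 receptors tested, LOC_Os06g36670, lower in N22, where 21.5% of all loci were lower in this way. LOC_Os02g13330, with higher values in all N22 controls than in all IR64 controls, was not among the 6.

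In N22 drought the 4 abundant receptors were separate from each other in level. The means ran LOC_Os05g12260, LOC_Os02g15640, LOC_Os10g42280, LOC_Os03g18600 from high to low, at 73.3, 47.8, 38.3 and 20.6 FPKM, and no neighbours in this order overlapped. In N22 control the order was LOC_Os10g42280, LOC_Os05g12260, LOC_Os03g18600, LOC_Os02g15640, at 55.9, 55.5, 48.6 and 47.2 FPKM, and all neighbours overlapped. In IR64 drought it was LOC_Os05g12260, LOC_Os02g15640, LOC_Os03g18600, LOC_Os10g42280, at 61.5, 50.4, 48.2 and 34.4 FPKM. In IR64 control it was LOC_Os05g12260, LOC_Os03g18600, LOC_Os10g42280, LOC_Os02g15640, at 51.7, 51.2, 46.7 and 44.0 FPKM. All neighbours among the abundant receptors overlapped in both IR64 groups.

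The highest of the 4 abundant receptors exceeded the lowest by 5.26, 4.49 and 2.21 times in N22 drought libraries 1, 2 and 3, against 1.36, 1.30 and 1.48 times in N22 control. In IR64 the ratios were 2.41, 1.16 and 2.42 in drought, against 1.35, 1.14 and 1.46 in control. The N22 drought ratios all exceeded those of N22 control, and IR64 drought library 2 was as even as the controls. In both cultivars the most abundant receptor of control library 1 was LOC_Os03g18600, that of control library 2 was LOC_Os10g42280 and that of control library 3 was LOC_Os05g12260.

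Among the low receptors the order in N22 drought was LOC_Os06g36670, LOC_Os02g13330, LOC_Os05g39580, LOC_Os01g61210, and of these neighbours LOC_Os05g39580 and LOC_Os01g61210 alone did not overlap. In N22 control LOC_Os05g39580 came before LOC_Os06g36670, LOC_Os02g13330 and LOC_Os01g61210, with LOC_Os06g36670 and LOC_Os02g13330 as the one pair without overlap. In both IR64 groups the order was LOC_Os06g36670, LOC_Os05g39580, LOC_Os02g13330, LOC_Os01g61210. All neighbours overlapped in IR64 drought, and the last pair alone did in IR64 control.

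**Figure D3:**
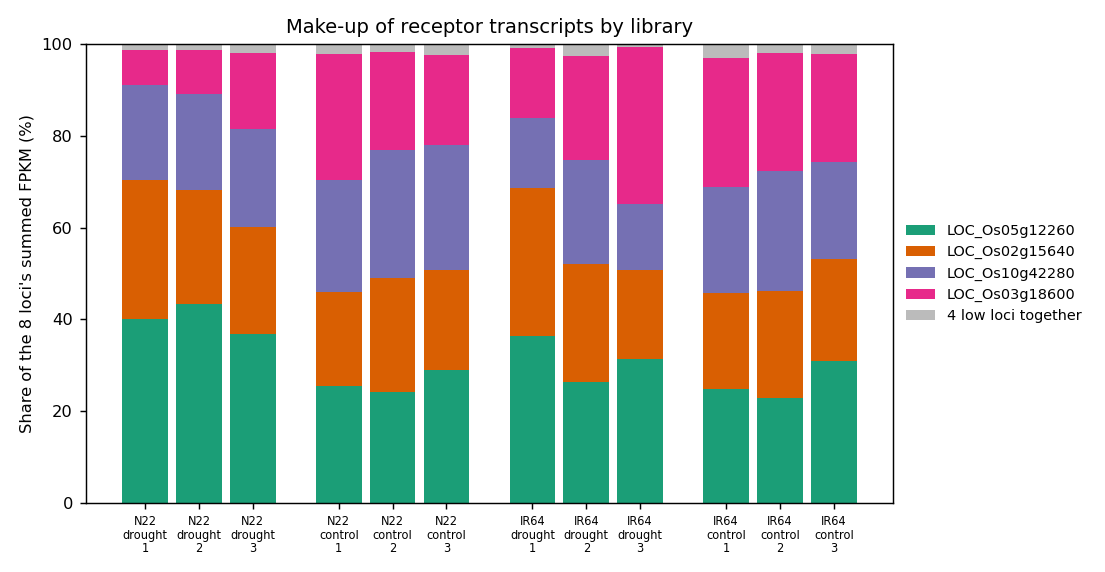
Share of each abundant receptor, and of the 4 low ones together, in the summed FPKM of the 8 receptor loci, in percent, as 1 stacked bar for each of the 12 libraries in the order N22 drought, N22 control, IR64 drought, IR64 control. LOC_Os03g18600 takes 7.63% to 16.6% in N22 drought and 19.7% to 27.6% in N22 control, and LOC_Os05g12260 takes 36.8% to 43.4% in N22 drought.

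As a share of all receptor transcripts, LOC_Os05g12260 made up 40.1% ± 3.30 in N22 drought and 26.3% ± 2.49 in N22 control (SD, n = 3 each). LOC_Os03g18600 made up 11.3% ± 4.72 in N22 drought and 22.9% ± 4.15 in N22 control. In IR64 the share of LOC_Os05g12260 was 31.4% ± 5.06 in drought and 26.2% ± 4.26 in control, and that of LOC_Os03g18600 was 24.1% ± 9.65 in drought and 25.8% ± 2.25 in control. The N22 drought and control ranges of both loci were separate, and those of IR64 overlapped. Shares add up to a whole, so a gain of 1 locus lowers the others.

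The summed level of all 8 receptors was 183, 186 and 179 FPKM in N22 drought libraries 1, 2 and 3, against 219.8, 215 and 200.04 FPKM in N22 control. The N22 drought sums were all below the N22 controls, by means of 183 ± 3.54 FPKM in drought and 212 ± 10.3 FPKM in control (SD, n = 3 each). In IR64 the sums were 182, 202 and 208 FPKM in drought, against 198, 211 and 187 FPKM in control, and the groups overlapped. The IR64 means were 197 ± 13.5 FPKM in drought and 198 ± 12.1 FPKM in control.

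The receptors' partners were read from lists of pathway genes. Of 9 clade A PP2C phosphatases 8 rose in each cultivar. In N22 the list's median change was 2.46 and in IR64 1.68, where the median over all loci was -0.000334 in N22 and 0 in IR64, and 6.55% of loci in N22 and 4.35% in IR64 were called higher. PP2C51 rose by 4.12 in N22 (SE 0.44, limma adjusted p = 0.000249) and by 3.48 in IR64 (SE 0.44, adjusted p = 0.000952), and PP2C68 by 3.72 in N22 (SE 0.58, adjusted p = 0.00139) and by 2.93 in IR64 (SE 0.58, adjusted p = 0.0056). None of the 6 receptors tested changed by as much as the median phosphatase.

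**Figure D4:**
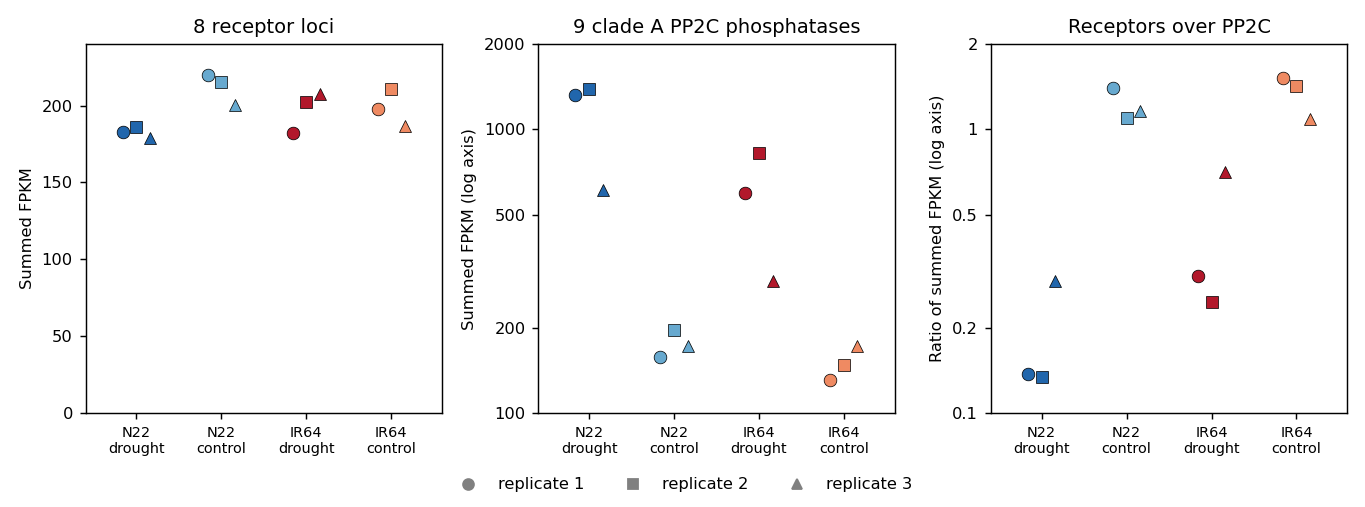
Summed FPKM of the 8 receptor loci (linear axis from 0), summed FPKM of 9 clade A PP2C phosphatases (log axis) and the ratio of the first sum to the second (log axis), in each library, with groups along the x axis and 1 symbol for each replicate number. The receptor sums lie between 179 and 219.8 FPKM, and the ratio is 0.134 to 0.293 in N22 drought and 1.10 to 1.40 in N22 control.

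The summed PP2C level was 1327, 1393 and 611 FPKM in N22 drought libraries 1, 2 and 3, against 157, 196 and 173 FPKM in N22 control. In IR64 it was 596, 823 and 293 FPKM in drought, against 130.4, 148 and 172 FPKM in control. The third drought library was the lowest of its group in both cultivars and still above every control.

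The summed FPKM of the 8 receptor loci over that of the 9 PP2C genes came to 0.138, 0.134 and 0.293 in N22 drought, against 1.40, 1.10 and 1.16 in N22 control. The ratios in IR64 were 0.305, 0.246 and 0.709 in drought, against 1.52, 1.42 and 1.08 in control. The receptor sum exceeded the PP2C sum in all 6 control libraries, and in none of the 6 drought libraries. Which sum was the larger also depends on how many loci each list holds. The PP2C sums include the rows that PP2C09 and PP2C49 share with neighbouring loci. The PP2C09 row averaged 308.5 of 1110 FPKM in N22 drought and 51.8 of 175 FPKM in N22 control. In IR64 it averaged 126.9 of 570 FPKM in drought and 37.2 of 150 FPKM in control. These are ratios of transcript levels, with protein amounts not measured.

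Of 10 SnRK2 kinases, 2 rose in N22, SAPK1 by 1.93 (SE 0.29, limma adjusted p = 0.00122) and SAPK6 by 1.21 (SE 0.21, adjusted p = 0.002). In IR64 1 rose, SAPK1 by 1.69 (SE 0.29, adjusted p = 0.0032). The list's median change was 0.41 in N22 and 0.21 in IR64, where 6.55% of all loci in N22 and 4.35% in IR64 were called higher. Receptor transcripts per SnRK2 transcript averaged 0.214 ± 0.00441 in N22 drought and 0.294 ± 0.0186 in N22 control, and 0.225 ± 0.0241 in IR64 drought and 0.238 ± 0.0345 in IR64 control (SD, n = 3 each). The SnRK2 sums include the row that SAPK2 shares with a neighbouring locus. That row averaged 366 of 856 FPKM in N22 drought and 389 of 722 FPKM in N22 control. In IR64 it averaged 395 of 881 FPKM in drought and 454 of 838 FPKM in control. How much of the row belongs to SAPK2 is not known.

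Of 6 ABF-type bZIP factors, 5 rose in N22 and 3 in IR64. The largest changes were those of bZIP12, at 2.12 in N22 (SE 0.23, limma adjusted p = 0.000237) and 1.47 in IR64 (SE 0.23, adjusted p = 0.002), and bZIP23, at 1.82 in N22 (SE 0.30, adjusted p = 0.00169) and 1.42 in IR64 (SE 0.30, adjusted p = 0.00705). The 8 genes that make or break down ABA included 5 that rose in N22 and 4 in IR64, led by NCED4, a synthesis gene, at 3.77 in N22 and 3.41 in IR64, and ABA8ox2, a breakdown gene, at 3.50 in N22 and 2.42 in IR64. Over all loci tested 6.55% were called higher in N22 and 4.35% in IR64. None of the 4 pathway lists had a gene called lower in a drought contrast, where 5.17% of all loci were lower in N22 and 976 of 24276 in IR64. None had a gene called in the difference of the responses, where 0.247% of all loci were called, so a list this small would seldom hold one.

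Beside these receptor values, the leaf markers summed to 3612 to 9887 FPKM in N22 drought and 16644 to 19996 FPKM in N22 control, and to 5285 to 6669 FPKM in IR64 drought and 15127 to 18408 FPKM in IR64 control. In each cultivar 4 of the 6 leaf markers fell, and the light-harvesting gene CAB1R rose, with CAB2R also rising in N22. The root markers summed to 281 to 469 FPKM in N22 drought and 526 to 693 FPKM in N22 control, and to 431 to 522 FPKM in IR64 drought and 571 to 633 FPKM in IR64 control. Of the 6 root markers 1, RCc3, fell in N22, and 0 were called in IR64, while 2 of 6, AMT1;2 and AMT1;3, were lower in N22 than in IR64 under drought. Over all loci tested, 5.17% were called lower in the N22 drought contrast and 8.37% were called in the IR64 one. Under drought 4.91% were called lower in N22 than in IR64. The part of these markers in the receptor results was not tested.

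**Figure D5:**
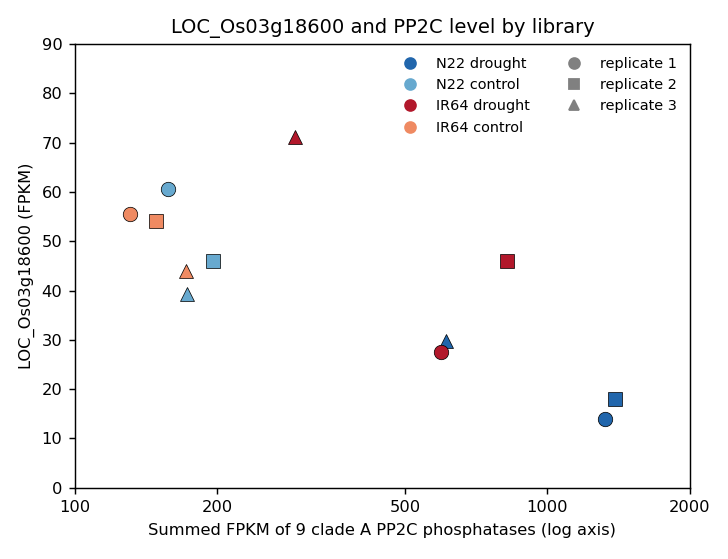
LOC_Os03g18600 (FPKM, y axis) against the summed FPKM of 9 clade A PP2C phosphatases (log x axis) in each of the 12 libraries, coloured by group and shaped by replicate number. The N22 drought libraries 1 and 2 combine the highest PP2C sums, 1327 and 1393 FPKM, with 13.9 and 18.0 FPKM of the receptor, and IR64 drought library 3 combines 293 FPKM with the highest receptor value, 71.2 FPKM.

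Across the 12 libraries, which share their treatment and replicate number, Pearson's r of log2(FPKM + 1) with the log2 PP2C sum was -0.81 for LOC_Os03g18600, 0.79 for LOC_Os05g12260, -0.72 for LOC_Os05g39580, -0.52 for LOC_Os10g42280, -0.50 for LOC_Os06g36670 and 0.44 for LOC_Os02g15640. The sign was positive for LOC_Os05g12260 and LOC_Os02g15640 and negative for the 4 others. The PP2C sum was itself higher in drought. By adjusted p alone 26.0% of all loci were higher and 26.4% lower for the mean of the drought effects. The share of all loci with r of these sizes was not computed. With the summed root markers r was 0.88 for LOC_Os03g18600 and -0.79 for LOC_Os05g12260, and with the summed leaf markers 0.56 for LOC_Os03g18600 and -0.75 for LOC_Os05g12260. The r values describe the 12 libraries and are not tests. Both sums follow their most abundant genes, RCc3, Lsi1 and Lsi2 for root and Rubisco for leaf, and do not stand for each marker. The median drought change of the 6 root markers was -0.17 in N22 and 0.18 in IR64. The leaf gene CAB1R rose in both cultivars.

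Between receptors, LOC_Os05g12260 ran against LOC_Os06g36670 (r = -0.84 over 12 libraries) and LOC_Os03g18600 (r = -0.76). Once the group means were taken off, r of LOC_Os05g12260 was -0.81 with LOC_Os06g36670 and -0.80 with LOC_Os10g42280, and LOC_Os10g42280 and LOC_Os06g36670 ran together (r = 0.86). LOC_Os02g15640 and LOC_Os03g18600 then had r = -0.72. These values pool the 4 groups and did not hold in each, since N22 drought library 2 had the most LOC_Os05g12260 and also the most LOC_Os10g42280 of its group. IR64 drought library 2 stood apart from libraries 1 and 3 of its group. It had 45.7 FPKM of LOC_Os10g42280 (against 27.9 and 29.5) and 2.81 FPKM of LOC_Os06g36670 (against 0.741 and 0.673). Its LOC_Os05g12260 was at 53.2 FPKM (against 66.3 and 65.1). How far the r values rest on this library was not tested.

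Of the 33 pathway genes, the one whose pattern over the 12 libraries was most like LOC_Os05g12260 was bZIP12, an ABF-type factor (r = 0.86), followed by ABA8ox3, a breakdown gene (r = 0.84). For LOC_Os10g42280 it was NCED1, a synthesis gene (r = 0.80), with the next gene, SAPK8, at r = 0.06, and the most unlike was SAPK10 (r = -0.88). NCED1 was also the gene closest to LOC_Os05g39580 (r = 0.56), followed by SAPK2 (r = 0.37), and, nearly tied with SAPK2 (r = 0.44), to LOC_Os03g18600 (r = 0.45), and the most unlike LOC_Os03g18600 was PP2C09 (r = -0.87). LOC_Os02g15640 was most like NCED5 (r = 0.63), followed by SAPK8 (r = 0.56), and LOC_Os06g36670 most like SAPK5 (r = 0.45), followed by NCED1 (r = 0.30). NCED1 itself did not pass in either cultivar, at -0.38 in N22 (adjusted p = 0.0495, under the minimum change) and -0.20 in IR64 (adjusted p = 0.29). For the mean of the drought effects it was the 1 list gene lower by the adjusted p alone (-0.29, limma adjusted p = 0.0278). The lists thus offered few genes that could run with a receptor lower in drought. Likeness with all other loci was not computed.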

How the data were processed

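Groups and replicate numbers came from the submitters' labels. The authors deposited FPKM values, computed with Cufflinks 2.2.1 from reads aligned by TopHat2 2.1.1, per the submitters' processing notes and the series design text, which also names NGSQC Toolkit 2.3.3 for read filtering, bowtie 2.3.3.0 for indexing the RGAP 7.0 genome, missForest for imputing values absent from a single replicate, and edgeR for the authors' own comparison, not used here. Whether the deposited values hold filled ones is not given in the sources used here.

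Rows of one name were summed, a missing locus counted as 0, and the 8 receptors each had 1 row. Ratios of values under 0.5 FPKM from one library to another were within 1% of their commonest value in 1.45% to 6.63% of cases. Whole reads were therefore not recovered, and with the depth unknown there are no counting intervals.

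Loci with at least 1 FPKM in 2 of 3 replicates of a group, 24276 in number, were fitted as log2(FPKM + 1) with limma 3.58.1 in R 4.3.3 (with data.table, version 1.17.8), with 4 group means over all 12 libraries, a trend of variance with intensity, two-sided moderated tests and Benjamini-Hochberg adjustment in each of 6 contrasts. The thresholds, an adjusted p of 0.05 and a change of 1, are those of the design text. On simulated data for the N22 drought contrast, with 24276 loci, 88% and 86% of 50 loci changed by 1.5 and by -1.5, and 98% and 100% of 50 changed by 3 and by -3, were called. The changed loci were drawn from those with a mean log2(FPKM + 1) above 3, and the noise was independent between libraries. These rates therefore do not apply to the low receptors LOC_Os05g39580 and LOC_Os06g36670. Nor do they give the rate for the abundant ones. By adjusted p alone 4749 loci passed higher and 4726 lower in the real contrast, far more than were changed here.

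Deviations from the group means of same-numbered libraries were correlated (12 of 12 above 0.1, between 0.118 and 0.595), so the labels' numbers were taken to pair the samples. The main fit left this pairing out, and a fit with the number as a block was an alternative. The other alternatives were array weights (whose estimation gave a convergence warning), a fit with no trend, scaling by quantiles or by median ratios, another pseudocount, a stricter filter or none, single rows, calls by adjusted p alone, fits of the compared groups alone, and fits with libraries left out. Files were read with pandas 2.3.3 and numpy 2.4.6 under Python 3.11.15, and matplotlib 3.10.9 drew the plots.

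All 8 receptors are named. From each pathway list the rule named the 2 called genes of largest change in each drought contrast, and the likeness of patterns was limited to the lists, because the reference table carries no identifiers of the kind used in the files. The receptors and lists were chosen with earlier results of these data known. Lists pair symbols with loci from general knowledge, and of 45 loci, all found, 33 have their symbol, on the same chromosome, among the RefSeq genes of another assembly. PP2C09, PP2C49 and SAPK2 share a row with neighbouring loci.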

Additional observations from a re-analysis of the deposited data

How the results depend on the processing

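No receptor value reversed its direction in a call. Of 840 values of single receptors under the alternatives, 10 passed the threshold newly and 9 no longer did, and 26 values that were not called in either fit differed in sign. With array weights the count of receptors called was 1 for the mean of the drought effects (LOC_Os03g18600, -1.22) and 0 between the cultivars under drought, and with only the libraries compared it was 0 there. A pseudocount of 0.1 gave 1 for the mean of the drought effects (LOC_Os05g39580), as did leaving out the third drought library of both cultivars (LOC_Os03g18600, -1.02). By the adjusted p alone the count was 3 in N22 and 4 for the mean. Leaving out each library in turn, the count ranged between 0 and 1 for drought in N22, for drought in IR64 and for the cultivars under drought. A minimum of 5 FPKM removed LOC_Os05g39580 and LOC_Os06g36670 from the tests. Tests on the libraries compared do not apply to the mean and the difference of the drought effects, which use all libraries.

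With the replicate number as a block, as the pairing check allows, the counts were 1 for drought in N22, 0 for drought in IR64, 0 for their mean, 0 for their difference, 0 for the cultivars in control and 1 for the cultivars under drought, and no call of a receptor changed. LOC_Os03g18600 then had a limma adjusted p of 0.0166 in N22 and 0.0333 between the cultivars under drought. Depth in reads is unknown, so the error of the 4 low receptors, at 0 to 2.81 FPKM, cannot be split into counting and other parts, and a change of a low locus is understated on the log2(FPKM + 1) scale.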
